A study of Canis lupus familiaris with 10 samples.

Results

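The basement membrane genes described here are the laminin chain genes LAMA4, LAMA5, LAMB1, LAMB2 and LAMC1, the collagen IV genes COL4A1 and COL4A2, the nidogen genes NID1 and NID2, and the perlecan gene HSPG2. They are 10 of the 15115 genes named on the Canine_2 array and were taken by symbol, with every probe set (a group of oligonucleotides that reports 1 transcript) named for them, which gave 35 of 42924 probe sets. The genes were selected on measured values of these arrays, among them the low LAMA4 signal in Dal4 and the spread of the collagen IV genes between cultures. The levels, the losses and the correlations are therefore descriptions. For the same reason the breed comparison of these genes is no independent evidence. A filter on low signals left 29 of the 35 probe sets for testing, with at least 1 for each gene, and the other 6 comprised 4 for LAMB1, 1 for NID1 and 1 for HSPG2.

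RNA came from cultured cells of splenic hemangiosarcoma, a malignant tumor of blood vessel-forming cells that is common in dogs, thawed at the earliest passage on hand and hybridized once per dog. The Golden Retriever group held 6 dogs aged 6 to 12 years (ChadG4, ChadG8 and Tucker, males, with ChadG6, Frog and Journey, females), of which Frog and Journey were distant relatives. The non-Golden Retriever group held 3 males aged 7 to 9 years, namely ChadP9 (a Portuguese Water Dog), Dal4 (a Dalmatian) and Joey (a Rottweiler by its title, although its breed field repeats the dog's name), and DD1, a 9-year-old male cross of Golden Retriever and Great Pyrenees by the study's methods, was the F1 dog. No dog was treated or genetically altered for the arrays, and all tumors were of 1 diagnosis and 1 organ. Each group's spread is thus a spread between cultures of different dogs, with the error of culture and array in it, and the 3 other-breed dogs differ in breed from each other as well.

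Basement membranes are thin sheets of extracellular matrix under endothelial cells and around pericytes and smooth muscle. Laminins are trimers of an alpha, a beta and a gamma chain that bind cell surface integrins and polymerize into a first network, collagen IV trimers of alpha 1 and alpha 2 chains form a second, covalently linked one, and nidogens and perlecan join the networks. In vessels the alpha chain is alpha 4 or alpha 5, paired with beta 1 or beta 2 and with gamma 1. Vessels lacking the alpha 4 chain bleed in newborn mice, and collagen IV loss makes basement membranes mechanically weak in mice.

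All fibroblast markers but LUM were read in every culture, whereas the markers of endothelium were mixed, some read in every culture and others in none. The threshold for signal above background was each array's 40th percentile (5.03 to 5.16 on the log2 scale). Of 13 endothelial markers, 5 exceeded it in all 10 dogs, namely KDR at 6.51 to 8.25, with CDH5, TIE1, CLDN5 and CD34 at 6.30 or less, and 4, PECAM1, TEK, ESAM and EMCN, in no dog. ERG was above it in 9 dogs, at most at 6.93, FLT1 in 4, with 8.32 in ChadG4 and 8.38 in ChadG8, VWF in 2, at most at 6.08, and ENG in 1. The mean signal over the list was 4.95 to 5.54 in Golden Retrievers and 4.79 to 5.43 in non-Golden Retrievers. Of 7 fibroblast markers, 6 were above the threshold in every dog, with COL3A1 at 13.92 to 14.33, and LUM was above it in 9 dogs, with 4.40 in Dal4. The mean over the list was 11.86 to 12.31 in Golden Retrievers and 11.01 to 12.22 in non-Golden Retrievers. Because RNA of whole cultures was measured, fewer cells of a type and less RNA per cell cannot be told apart. One array went against the record of its dog: EIF2S3, an initiation factor gene with a Y-linked copy in many mammals, was read at 2.95 in Dal4, recorded as male, against 10.15 to 10.60 in the other 6 males and 3.08 to 3.33 in the 3 females. Results that rest on Dal4 are given with and without it.

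The signal of LAMA4, the alpha chain of many vascular laminins, was at background in Dal4 and high in the other 9 cultures. In Golden Retrievers the log2 signal was 12.25 at the lowest, 12.72 at the median and 13.35 at the highest, against 10.08 in ChadP9, 4.74 in Dal4 and 13.01 in Joey, and it was 12.61 in the F1 dog. Dal4 lay below all other dogs at each of the 4 LAMA4 probe sets, by 5.34, 4.79, 4.77 and 4.96 log2 units, while Joey lay inside the Golden Retriever range at each. Since the Dal4 signal was under its array's threshold of 5.03, LAMA4 was at least 33.2-fold lower in Dal4 than in the next lowest dog and at least 192-fold lower than the median of the other 9 dogs, both taken from that threshold.

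The next lowest dog, ChadP9, also stood apart from the rest. With Dal4 aside, it lay below the lowest of the other 8 cultures by 2.17 log2 units, or 4.49-fold, at the brightest LAMA4 probe set and by 1.70 to 2.44 log2 units at all 4. The 4 probe sets correlated with each other across the 10 dogs at r of 0.992 or more. They report 1 gene and are not independent measurements.

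A signal was counted as lost in a dog where it was lower than in each of the others by 3 log2 units or more. By this rule 4 of the 29 tested probe sets were lost in a culture, all 4 of LAMA4 and all in Dal4, whereas 28 of 26787 tested probe sets (0.105%) were lost in Dal4 over the whole array. No other gene of the 10 met the rule in any dog. At 2 log2 units the count over the 29 remained 4, at 1 log2 unit it was 5, the added one being a LAMB1 probe set in ChadG4 that lay 1.02 log2 units below the next dog, and without Dal4 none reached 3. Over the array, 67 of 26787 were lost in Dal4 at 2 log2 units. At 1 log2 unit 280 were lost in Dal4 and 200 in ChadG4. Dal4 had the most losses of the 10 dogs at each limit.

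The neighbors of LAMA4 that passed the filter were not at background in Dal4. In the order of genes of the dog assembly UU_Cfam_GSD_1.0, which was used for neighborhood only, 5 of the 12 nearest protein-coding genes were measured above the filter. HDAC2 had 10.66 in Dal4 against 10.29 to 11.68 in the other dogs, NT5DC1 7.52 against 7.41 to 8.92, and TRAF3IP2 6.57 against 6.15 to 7.34, so these lay within the range of the others. TUBE1 was at 7.21 in Dal4 against 7.30 to 9.33, and FYN at 8.84 against 9.63 to 11.74, so that Dal4 was the lowest dog in both, by 0.09 and 0.79 log2 units.

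The genes whose pattern was most like that of LAMA4 over the 10 dogs shared the low value in Dal4. The 5 with the highest Pearson correlation, 1 probe set per gene, were VEGFC (a lymphangiogenic growth factor, r = 0.947), LUM (lumican, a collagen-binding proteoglycan, r = 0.933), DSE (an epimerase of dermatan sulfate synthesis, r = 0.932), NAT9 (r = 0.928) and PPCS (an enzyme of coenzyme A synthesis, r = 0.925). LUM had a signal of 4.40 in Dal4 and 12.47 to 14.08 in the other dogs, and DSE 4.75 in Dal4 and 8.59 to 8.76 in the others. In ChadP9, where LAMA4 was second lowest, LUM had 13.69 and DSE 8.71, within the range of the other cultures. The r of LAMA4 with the mean of the fibroblast markers, a list that holds LUM, was 0.897 over the 10 dogs and 0.527 without Dal4. Apart from LUM, the markers of that list were above the threshold in Dal4, with COL1A1 at 13.42, COL3A1 at 14.09, DCN at 12.96, PDGFRA at 9.87 and THY1 at 8.33, the highest of all dogs. The part of cell makeup in the LAMA4 signal was not tested.

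**Figure D1:**
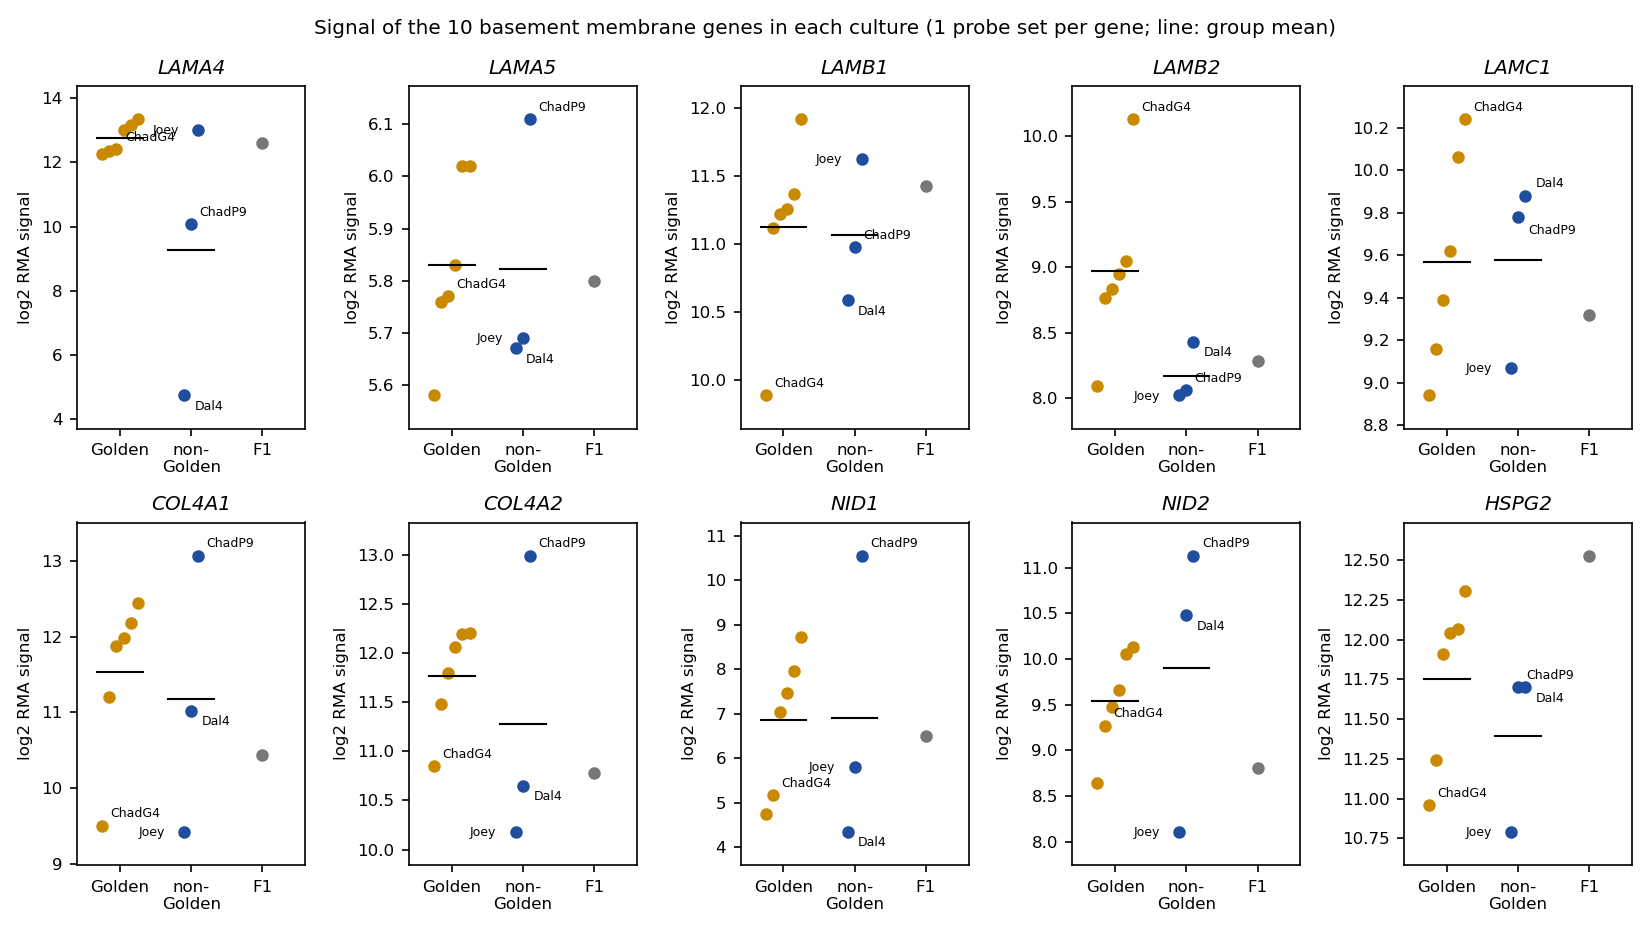
Log2 RMA signal of the 10 genes, each at its probe set of highest mean, in 6 Golden Retriever, 3 non-Golden Retriever and 1 F1 culture, with 1 point per dog, a line at the mean of a group and a separate vertical scale in each panel. LAMA4 in Dal4 sits at 4.74 against 10.08 or more in the others, LAMB2 is highest and LAMB1 lowest in ChadG4, and COL4A1, COL4A2, NID1 and NID2 are highest in ChadP9.

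LAMA5, the other vascular laminin alpha chain, differed little between cultures. Its only probe set had log2 signals of 5.58, 5.80 and 6.02 at the lowest, median and highest Golden Retriever, against 6.11 in ChadP9, 5.67 in Dal4 and 5.69 in Joey, and 5.80 in the F1 dog. These values were above the threshold in all 10 dogs, though not far from it, and Dal4, where LAMA4 was at background, was the second lowest. The highest dog, ChadP9, exceeded the next by 0.08 log2 units. Of the alpha chains outside vessels, LAMA1 was below the filter, and LAMA3 (an epithelial chain) had 6.66 to 7.78 in Golden Retrievers, against 6.27 in ChadP9, 8.26 in Dal4 and 5.63 in Joey. LAMA3 in Dal4 was thus within 0.03 log2 units of the highest dog, the F1 dog.

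The 2 vascular beta chains went opposite ways in ChadG4. LAMB1, the widespread beta 1 chain, had log2 signals of 9.89, 11.24 and 11.92 at the lowest, median and highest Golden Retriever, against 10.98 in ChadP9, 10.59 in Dal4 and 11.63 in Joey, and 11.43 in the F1 dog. The lowest was ChadG4, 0.70 log2 units (1.62-fold) below the next dog, and ChadG4 was lowest at all 5 tested LAMB1 probe sets. ChadG4 was the lowest of the 10 dogs at 15.1% of all tested probe sets. LAMB2, the beta 2 chain of mature vessels and the neuromuscular junction, had 8.09, 8.89 and 10.13 in Golden Retrievers, against 8.06 in ChadP9, 8.43 in Dal4 and 8.02 in Joey, and 8.28 in the F1 dog. Here ChadG4 was the highest, 1.08 log2 units (2.12-fold) above the next, and it was highest at all 6 LAMB2 probe sets and at 13.4% of all tested ones.

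Relative to the median dog, LAMB2 minus LAMB1 came to 2.89 log2 units in ChadG4 and to between -0.52 and 0.47 in the other 5 Golden Retrievers, against -0.28 in ChadP9, 0.48 in Dal4 and -0.96 in Joey. The 2 genes correlated at r = -0.55 over the 10 dogs (Spearman correlation = -0.24) and at r = 0.19 without ChadG4. Over all 30 combinations of their probe sets r ran from -0.95 to -0.47, and without ChadG4 from -0.87 to 0.41, with 21 of 30 negative, so that the sign without ChadG4 depended on the probe sets. The smooth muscle marker ACTA2 was also lowest in ChadG4, at 6.39 against 9.73 to 14.13 in the other dogs, and FBLN2, a basement membrane glycoprotein, was lowest there too, at 9.67 against 10.69 to 12.93. The receptor genes ITGA3 and DAG1, by contrast, were highest in ChadG4. ITGA3 had 8.96 there against 4.86 to 7.37 in the other dogs, and DAG1 10.54 against 9.09 to 9.68. These genes were picked after their values were seen.

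LAMC1, the gamma 1 chain common to these trimers, had log2 signals of 8.94, 9.51 and 10.24 at the lowest, median and highest Golden Retriever, against 9.78 in ChadP9, 9.88 in Dal4 and 9.07 in Joey, and 9.32 in the F1 dog. Tucker was lowest at all 3 LAMC1 probe sets, which correlated with each other at r of 0.95 or more. It was also the lowest dog at 3899 of 26787 tested probe sets. In Dal4, where LAMA4 was at background, LAMC1 was the third highest. At the brightest probe sets LAMC1 and LAMB1 correlated at r = -0.83 (Spearman correlation = -0.82, 10 dogs) and at -0.95 to -0.77 when 1 dog was left out. Without ChadG4 and Tucker, the dogs farthest from the LAMB1 median, r was -0.66. Over all 15 combinations of their probe sets, however, r ran from -0.83 to 0.13. Without ChadG4 it ran from -0.85 to 0.61, with 9 of 15 negative, so that the sign without ChadG4 depended on the probe sets. The 5 LAMB1 probe sets correlated with each other at a median r of 0.85 and at the lowest of 0.51. LAMC1 moved with the ratio of 3' to 5' actin control probe sets, a measure of RNA integrity, at r = -0.61 to -0.75, and that ratio was highest in Tucker, at 1.27 log2 units against 0.01 to 0.83 in the other dogs. At the brightest LAMC1 probe set this r was -0.61 over the 10 dogs and -0.42 without Tucker. The mean of the epithelial markers, 4 genes measured and none above the threshold in all dogs, was 5.39 to 8.31 in Golden Retrievers and 4.95 to 8.88 in non-Golden Retrievers. Its r was -0.70 to -0.76 with the LAMC1 probe sets. With the 5 tested LAMB1 probe sets it was 0.30 to 0.76, the highest at the brightest probe set. The part of RNA integrity or of epithelial-like cells in the relation was not tested.

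COL4A1 and COL4A2, the chains of the collagen IV trimer found in all vessels, moved together. COL4A1 had log2 signals of 9.50, 11.93 and 12.44 at the lowest, median and highest Golden Retriever, against 13.07 in ChadP9, 11.02 in Dal4 and 9.42 in Joey, and 10.43 in the F1 dog. COL4A2 had 10.85, 11.93 and 12.20 in Golden Retrievers, against 12.99 in ChadP9, 10.65 in Dal4 and 10.18 in Joey, and 10.78 in the F1 dog. In both genes ChadP9 was highest and Joey lowest, and these dogs of 1 group were 3.64 log2 units (12.5-fold) apart in COL4A1 and 2.81 log2 units (7-fold) apart in COL4A2. ChadG4 was within 0.08 log2 units of Joey in COL4A1, whereas in COL4A2 Joey, Dal4 and the F1 dog all lay below it. The same 2 extremes were seen at all 3 COL4A1 and both COL4A2 probe sets.

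The correlation between the 2 genes over the 10 dogs was r = 0.93 (Spearman correlation = 0.95). It was 0.91 to 0.97 when 1 dog was left out, 0.96 without ChadG4 and Joey, 0.98 among the 6 Golden Retrievers and 0.93 or more at all 6 combinations of probe sets. The genes are neighbors in the dog assembly, and in human and mouse they lie head to head and share a promoter region. The arrayed neighbors on either side, IRS2 and RAB20, had 6.24 to 7.16 and 5.32 to 6.02 over the 10 dogs.

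NID1 and NID2, the nidogens that link laminin to collagen IV, were likewise highest in ChadP9. NID1 had the widest spread after LAMA4, with 4.76, 7.26 and 8.72 at the lowest, median and highest Golden Retriever, against 10.55 in ChadP9, 4.35 in Dal4 and 5.80 in Joey, and 6.50 in the F1 dog. It was at background in ChadG6 and Dal4, and ChadP9 exceeded the next dog by 1.83 log2 units (3.55-fold). Taken from the threshold of the Dal4 array, NID1 was at least 46.1-fold higher in ChadP9 than in Dal4. NID2 had 8.64, 9.57 and 10.13 in Golden Retrievers, against 11.13 in ChadP9, 10.48 in Dal4 and 8.11 in Joey, and 8.81 in the F1 dog. The nidogens parted in Dal4, where NID1 was the lowest of all dogs and NID2 the second highest.

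In all, ChadP9 was highest at 9 of the 29 tested probe sets, 8 of them of collagen IV and nidogen genes and 1 of LAMA5, against 8.64% of all tested probe sets. Joey was lowest at 9 of the 29, namely those of COL4A1, COL4A2 and NID2, 1 of HSPG2 and 1 of LAMB2, against 11.1%. Probe sets of 1 gene share a transcript, and the genes were chosen with these levels in view, so that no test of these counts was made.

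The 6 pairs among COL4A1, COL4A2, NID1 and NID2 had r of 0.59 to 0.93 over the 10 dogs, with a median of 0.74. Without ChadP9 they ran from 0.32 to 0.91, and without Dal4 from 0.79 to 0.97. The lowest pair was NID1 with NID2, at r = 0.59 (Spearman correlation = 0.50) over all dogs and 0.90 without Dal4. The mean of the smooth muscle and pericyte markers was positively related to collagen IV. This mean over 8 genes, 5 of them above the threshold in all dogs and RGS5 in none, was 6.40 to 8.80 in Golden Retrievers and 7.28 to 8.59 in non-Golden Retrievers, and its r with COL4A1 was 0.83 and with COL4A2 0.71. The single markers differed in this, with r against COL4A1 from 0.26 for DES (desmin) to 0.81 for CNN1 (calponin). CNN1 was 11.02 in ChadP9 and 5.11 in Joey, whereas DES was 7.05 and 7.09 and MYH11 (smooth muscle myosin) 4.83 and 4.71 in these dogs, and ACTA2 was 12.69 in Joey, where COL4A1 was lowest. The part of smooth muscle-like cells in the collagen IV signal was not tested.

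The 5 genes most like COL4A1 over the 10 dogs, beside the members, were ARHGEF17 (r = 0.917), SYNDIG1 (r = 0.905), PMEPA1 (a transforming growth factor beta target, r = 0.879), LOC491694 (r = 0.872) and ACTG2 (enteric smooth muscle actin, r = 0.865). Most of them varied far less than COL4A1. SYNDIG1 ran from 5.12 to 5.86 and ARHGEF17 from 6.26 to 7.16, whereas ACTG2 ran from 6.87 in Joey to 14.32 in ChadP9, with 6.97 in ChadG4 and 7.10 in Dal4. COL4A2 stood closer to COL4A1 than all 5.

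HSPG2, the gene of the heparan sulfate proteoglycan perlecan, was above the threshold in every culture. It had 10.96, 11.97 and 12.31 at the lowest, median and highest Golden Retriever, against 11.70 in ChadP9, 11.70 in Dal4 and 10.79 in Joey, and 12.53 in the F1 dog. The F1 dog exceeded both groups at this probe set, by 0.22 log2 units over ChadG8, but not at the second tested one, where it had 7.61 and ChadG8 7.81. Of the 10 genes, 8 had an F1 value inside the Golden Retriever range, COL4A2 lay below it and HSPG2 above it. Only HSPG2 of the 10 also lay outside the non-Golden Retriever range.

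**Figure D2:**
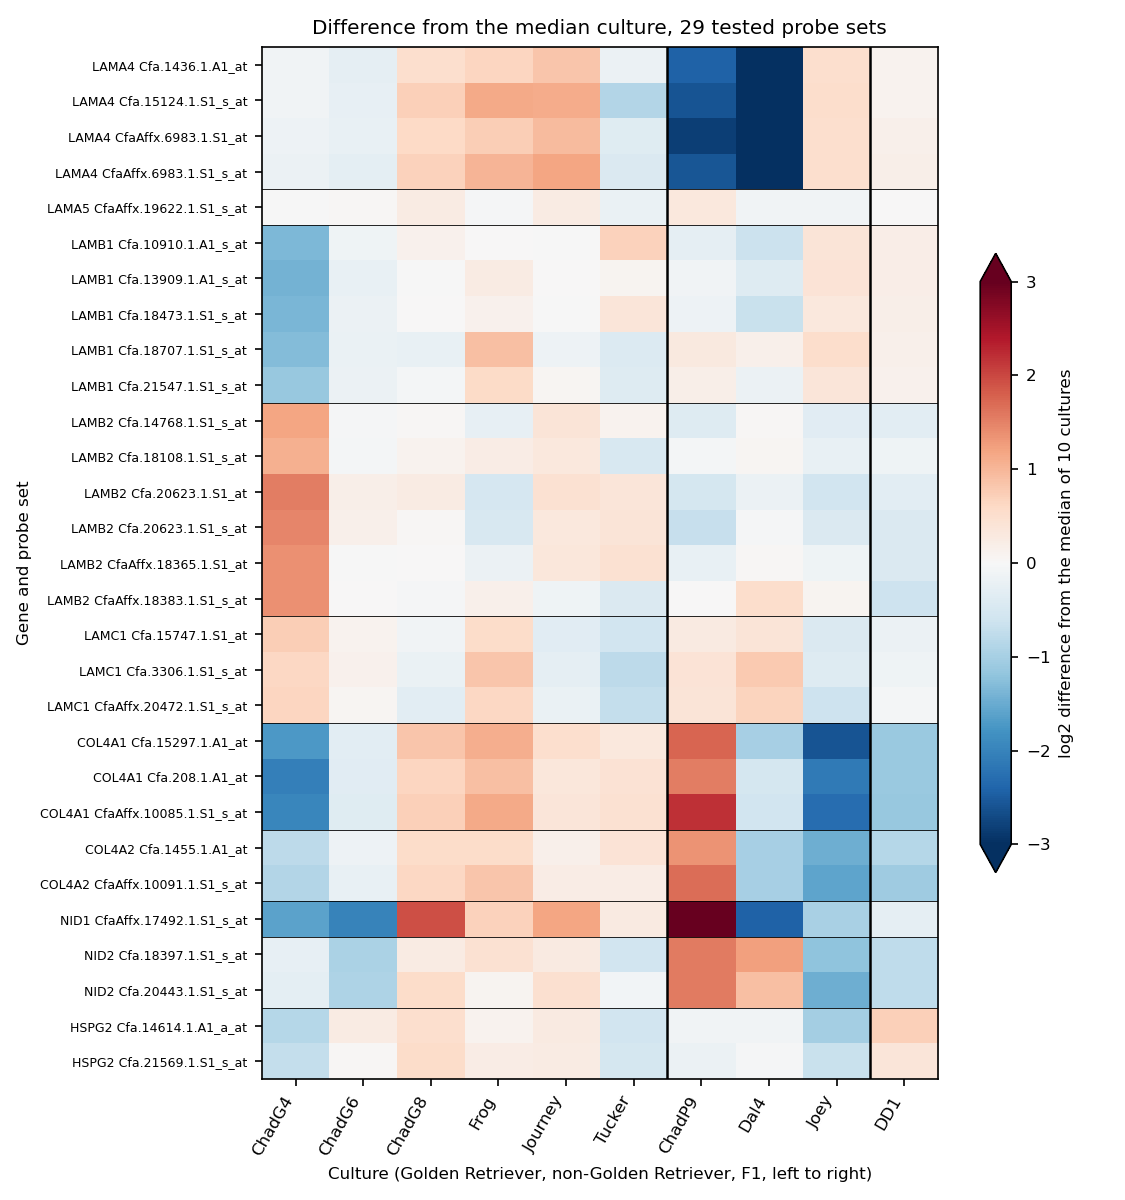
Log2 difference from the median of the 10 cultures at each of the 29 tested probe sets, with dogs in columns, probe sets in rows and the color scale ending at 3 log2 units in either direction. The 4 LAMA4 probe sets are dark blue in Dal4 alone and lighter blue in ChadP9, and the COL4A1, COL4A2, NID1 and NID2 rows are red in ChadP9 and blue in Joey.

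Taken over the 10 genes, the levels did not move as 1 block. The median Pearson correlation over the 45 pairs of genes was 0.19, with 29 of 45 positive. The median correlation of each gene with the 11101 other tested genes lay between -0.05 and 0.04. Collagen IV and nidogens were positively related with each other and with LAMA5, which correlated with NID1 at r = 0.72 (Spearman correlation = 0.59) although its own range was small. Without ChadP9 that r was 0.55, and those of LAMA5 with COL4A2, COL4A1 and NID2 were 0.36, 0.29 and 0.28, against 0.57, 0.50 and 0.53 over all dogs. Without ChadP9 and Journey, the dogs farthest from the LAMA5 median, the r with NID1 was 0.43 and the other 3 were 0.12 to 0.29. LAMA4 was related to none of them in a stable way. Its r with NID1 was 0.28 over all dogs, -0.46 without Dal4 and 0.69 without Dal4 and ChadP9, the dogs farthest from its median. With COL4A1 its r was -0.04 over all dogs, -0.35 without Dal4 and 0.31 without both.

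**Figure D3:**
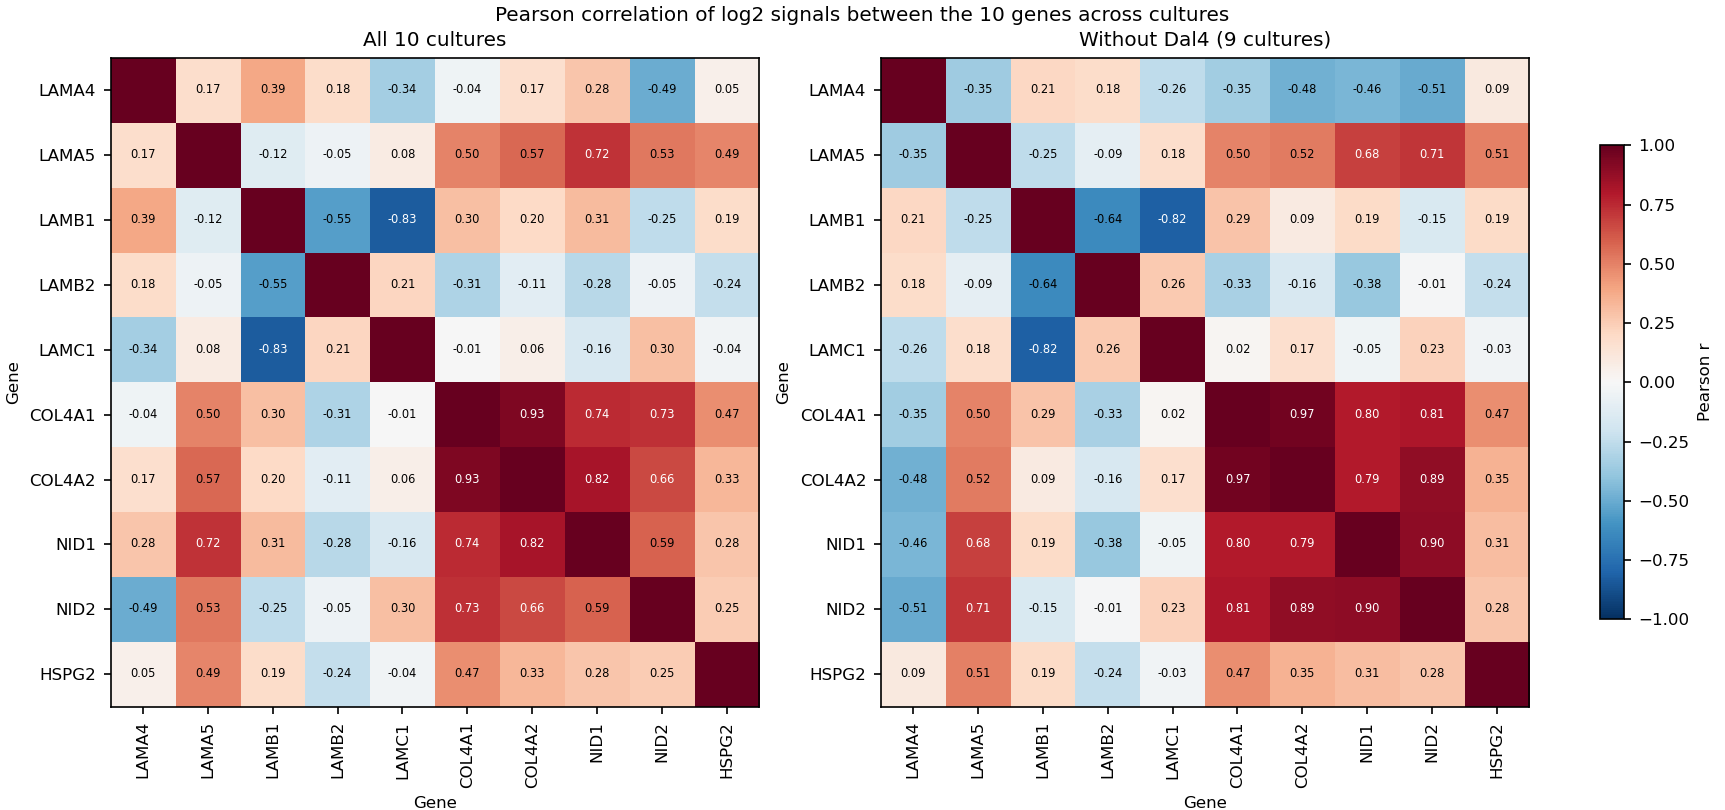
Pearson correlation of log2 signals between the 10 genes over all 10 cultures (left) and over 9 cultures without Dal4 (right), with r printed in each cell. COL4A1, COL4A2, NID1 and NID2 form a block of 0.59 to 0.93, which is 0.79 to 0.97 without Dal4, and the LAMA4 row changes sign at several genes.

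The breed comparison asked whether the groups differed, with 6 Golden Retrievers against 3 non-Golden Retrievers fitted by limma over all tested probe sets and the F1 dog left out. None of the 29 probe sets passed an adjusted p of 0.05, as against 1 of 26787 (0.00373%) over the array. At an unadjusted p under 0.05, 4 were higher in Golden Retrievers, all of LAMA4, and 0 were lower, with 1.81% of all tested probe sets higher and 4.52% lower. The methods' t-test on the same values gave 0 of the 29 at an unadjusted p under 0.05, against 1514 of 26787 over the array. The groups overlapped at all 29 probe sets, and they did not overlap at 2.46% of all tested ones. Of the 10 genes, 7 had a positive difference, which means more signal in Golden Retrievers, and the median difference was 0.21 log2 units, against -0.02 over all tested genes. Of the 29 probe sets 18 were positive, against 47.1% of all tested ones. The median was 0.63 without ChadP9 and -0.06 without Joey. The count of 4 was 0 without Dal4, 1 without Journey, 2 without ChadG8 and 6 without Joey. Over the array, where 1695 of 26787 probe sets had an unadjusted p under 0.05, these settings gave 966, 1458, 1184 and 1571.

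LAMA4 averaged 12.76 ± 0.47 in Golden Retrievers (SD, n = 6) and 9.28 ± 4.19 in non-Golden Retrievers (SD, n = 3). The limma difference was 3.48 log2 units (SE 1.39, 95% interval 0.35 to 6.61, adjusted p = 0.772), and the difference without Dal4 was 1.21 (SE 0.66, adjusted p = 0.999), with no member probe set then at an unadjusted p under 0.05. Without Joey it was 5.35 (adjusted p = 0.686, unadjusted p = 0.00113). Dal4 at 4.74 and Joey at 13.01 lay farthest from the mean of the non-Golden Retrievers, on opposite sides.

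LAMB2 was the next largest difference. It averaged 8.97 ± 0.66 in Golden Retrievers (SD, n = 6) and 8.17 ± 0.22 in non-Golden Retrievers (SD, n = 3), a difference of 0.80 log2 units (SE 0.36, 95% interval -0.02 to 1.62, limma adjusted p = 0.772). Only Frog among the Golden Retrievers lay below Dal4, the highest of the non-Golden Retrievers. The 6 LAMB2 probe sets gave differences of -0.05 to 0.80. Without ChadG4 the difference at the brightest was 0.57 (SE 0.23, limma adjusted p = 0.688).

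For the other genes the intervals covered 0 and were wide. COL4A1 averaged 11.53 ± 1.08 in Golden Retrievers (SD, n = 6) and 11.17 ± 1.83 in non-Golden Retrievers (SD, n = 3), with a difference of 0.36 log2 units (95% interval -1.48 to 2.20), and that of COL4A2 was 0.49 (-0.79 to 1.77). Without Joey these were -0.51 and -0.05, and without ChadP9 they were 1.31 and 1.35. For COL4A2 without ChadP9 the limma adjusted p was 0.31 (unadjusted p = 0.00555). The NID1 difference was -0.05 (-3.05 to 2.95), that of NID2 -0.37 (-1.71 to 0.98) and that of HSPG2 0.36 (-0.40 to 1.12), which was 0.058 without Joey. Without ChadP9 those of NID1 and NID2 were 1.78 and 0.24. Without Joey that of NID2 was -1.27 (limma adjusted p = 0.841, unadjusted p = 0.0108). LAMA5, LAMB1 and LAMC1 differed by 0.00, 0.06 and -0.01 log2 units, with intervals of -0.35 to 0.36, -0.83 to 0.96 and -0.72 to 0.70.

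**Figure D4:**
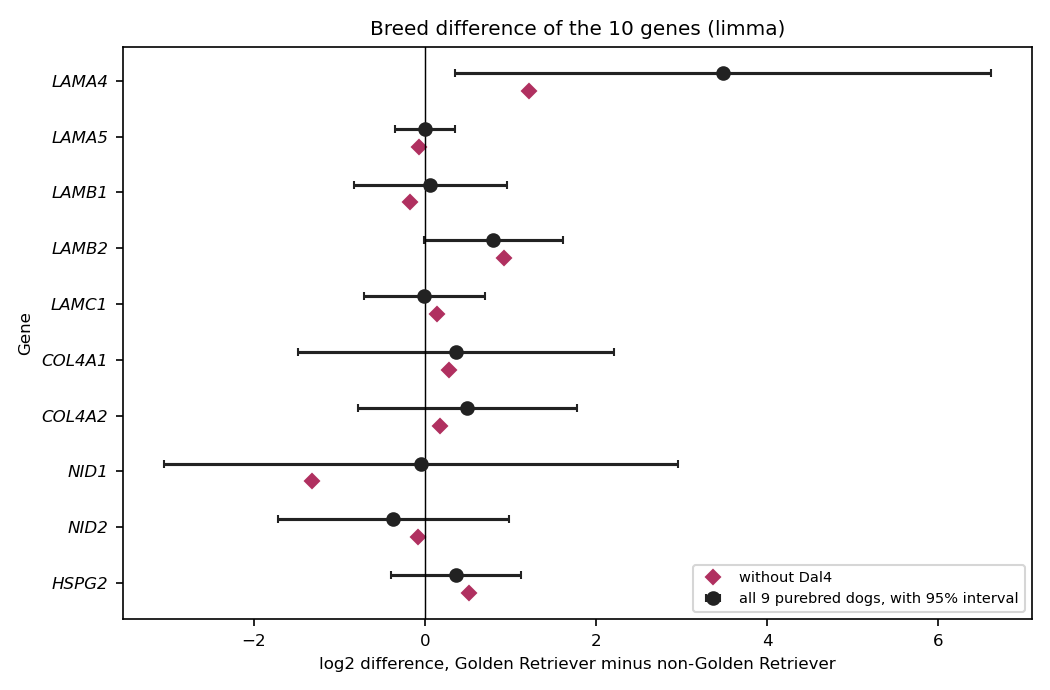
Difference in log2 signal of the 10 genes from limma, positive where Golden Retrievers had more, with circles and 95% intervals for 6 against 3 dogs and diamonds for the value without Dal4. LAMA4 is at 3.48 with all dogs and 1.21 without Dal4, and the interval of each other gene covers 0.

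Partner genes of the same pathway were read from 6 lists, with 39 of 53 genes tested. At an adjusted p of 0.05 by limma, 0 of the 39 passed, and at an unadjusted p under 0.05 there were 3, NTN4 and ITGA7 higher and DDR1 lower in Golden Retrievers, with 1.81% higher and 4.52% lower over all tested probe sets. The methods' t-test gave 4 at an unadjusted p under 0.05, against 1514 of 26787 over the array. By limma the count was 7 without ChadP9 and 5 without ChadG4. Over the array it rose as well, from 1695 of 26787 to 3141 without ChadP9 and 1910 without ChadG4. No gene of the lists met the rule for loss in a culture. Of 12 receptors for laminin and collagen IV, all were tested and 8 had a positive difference, of 10 collagen modifying enzymes and chaperones 7 did, of 8 other basement membrane proteins 5, of 5 degrading enzymes 4, and both tested genes of the other laminin chains and of the other collagen IV chains did. Over all tested probe sets 47.1% had a positive difference, and no test of these counts was made.

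ITGA7, the alpha 7 chain of a laminin-binding integrin of muscle and vessel walls, had 8.56, 10.98 and 11.56 at the lowest, median and highest Golden Retriever, against 7.66 in ChadP9, 10.19 in Dal4 and 8.48 in Joey (difference 1.90, SE 0.70, limma adjusted p = 0.772). The groups overlapped through ChadG4 at 8.56. DDR1, a collagen receptor tyrosine kinase of epithelial cells, had 4.46, 6.03 and 6.90 in Golden Retrievers, against 7.16 in ChadP9, 7.68 in Dal4 and 8.64 in Joey (difference -1.86, SE 0.53, limma adjusted p = 0.772), and here every non-Golden Retriever lay above every Golden Retriever. Over the array the groups likewise did not overlap at 659 of 26787 tested probe sets (2.46%). NTN4 (netrin 4, which binds laminin gamma chains) had 7.43, 8.12 and 9.52 in Golden Retrievers, against 6.11 in ChadP9, 7.51 in Dal4 and 7.29 in Joey (difference 1.41, SE 0.50, limma adjusted p = 0.772), with Tucker the only Golden Retriever below Dal4.

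Some partners varied widely between dogs without following the breed label. ITGA6, the alpha 6 chain of the major laminin-binding integrins, ran from 5.10 in Joey to 11.07 in ChadP9, and Joey lay 2.94 log2 units below the next dog. FBLN1 (fibulin 1, a basement membrane glycoprotein) ran from 6.26 in ChadG4 to 9.84 in Joey. COL15A1, a collagen at the outer face of basement membranes, had 8.33 in Dal4, 1.82 log2 units below the next dog, and 10.15 or more elsewhere. SERPINH1, the collagen chaperone HSP47, ran from 8.72 in ChadG4 to 11.43 in Frog and ChadP9, and PLOD1, a lysyl hydroxylase of collagen, from 8.66 in Joey to 10.66 in ChadP9. Among the degrading enzymes, MMP14 (a membrane-bound matrix metalloproteinase) ran from 8.08 in Tucker to 10.06 in Frog and PLAU (urokinase) from 9.19 in the F1 dog to 11.16 in Journey. COL4A4 and COL4A6, chains of other collagen IV trimers, and LAMB3, an epithelial laminin chain, ranged over 0.56, 0.30 and 0.74 log2 units.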

How the data were processed

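Hemangiosarcoma cell cultures of 10 dogs were arrayed once each on Affymetrix Canine_2 chips. The authors deposited log2 signals computed with RMA (affy), which corrects background, quantile-normalizes the arrays together and summarizes the probes of a probe set. RMA gives no detection call, so low signals stand near background and differences there are compressed. No scanner files and no batch labels were used here. From 43035 probe sets, 111 controls were left out, and 26787 that exceeded the array's 40th percentile on 3 or more of the 9 purebred arrays were tested. Gene names came from the platform's annotation through RefSeq: 29254 probe sets had 1 gene, 439 several and 13231 none, and only those with 1 gene were named. The probe set of highest mean stood for a gene. Signals were compared between dogs within a probe set and never between probe sets.

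Golden Retrievers and non-Golden Retrievers were compared with limma 3.58.1 in R 4.3.3, two-sided, with Benjamini-Hochberg adjustment over all tested probe sets. The fit was tested on simulated data of independent normal values. Each probe set's SD was capped there at the median SD, so the simulation did not cover a spread as wide as that of LAMA4. The number of arrays limits the precision. The p-values set a mean difference against the spread between dogs, which also holds the error of culture and array. Correlations and losses carry no test. The 10 genes, the partner lists and the marker lists were chosen with earlier results of these data known. Named were every probe set of the 10 genes, the 5 genes most like LAMA4 and COL4A1, and, from the partner lists, genes at an unadjusted p under 0.05, lost genes and the 2 of widest range in each list. FBLN2, ITGA3 and DAG1 of these lists were named outside this rule, after their values were seen. Other filters, array centering, the place of the F1 dog, the methods' t-test, males alone, the mean over the probe sets of a gene, Spearman correlation, other loss limits and leaving out dogs were tried. Leaving out dogs from the relations with marker lists and with the actin ratio was chosen after seeing the data. So was leaving ChadG4 out of the probe set pairs of LAMB1 with LAMB2 and with LAMC1.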

Additional observations from a re-analysis of the deposited data

Results flagged for a closer look

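Among the 6 Golden Retrievers, 1 dog stood far from the other 5 at 3 of the 29 tested probe sets, judged by its gap to the nearest dog as a share of the group's range, with a limit of 0.625. All 3 concerned ChadG4. At 1 LAMB1 probe set it had 8.82 against 10.0 to 10.48 in the other 5, at a second LAMB1 probe set 9.61 against 10.82 to 11.36, and at 1 LAMB2 probe set 8.34 against 6.55 to 7.14. Chance flags about 1 in 20 groups, and probe sets of 1 gene are not independent.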

How the results depend on the processing

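No difference of the 10 genes passed an adjusted p of 0.05 in any of 19 refits (17 for LAMA5). These gave 188 values, 1 per gene and refit (lowest adjusted p by gene and refit 0.31), and most refits shared most of the dogs. LAMA4, LAMB2 and HSPG2 kept a positive difference in all refits of theirs. The other 7 genes changed sign in 1 refit or more. With arrays centered, LAMA5 was -0.0033 log2 units. With the F1 dog counted as non-Golden Retriever, LAMB1 was -0.030, LAMC1 0.056 and NID1 0.054, and 0 probe sets passed over the array. At an unadjusted p under 0.05 there were then 1 of the 29 and 918 of 26787. By the methods' t-test 2 probe sets passed over the array. At an unadjusted p under 0.05 that test gave 0 of the 29 and 1514 of 26787. Among males alone, with Dal4 kept as male by its record, LAMA5 was -0.037, LAMB1 -0.0072 and NID1 0.081. Without Dal4 and ChadG4, tried after the data were seen, LAMA5 was -0.060 and LAMC1 0.012, and 2 probe sets passed over the array. In that setting 2 of the 29 and 1076 of 26787 had an unadjusted p under 0.05. The mean of its probe sets put LAMB1 at -0.20. The cause was not tested.

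With 1 dog left out, the count over the array was 1 to 2 (2 without Joey), that of the 29 was 0 (without Dal4) to 6 (without Joey), and that of the partner lists 3 to 7 (7 without ChadP9). At an unadjusted p under 0.05 the array itself had 966 (without Dal4) to 3141 (without ChadP9) of 26787. LAMA4 ran from 1.21 (without Dal4) to 5.35 (without Joey), HSPG2 from 0.058 (without Joey) to 0.52, LAMA5 from -0.072 to 0.15, LAMB1 from -0.18 to 0.34 and LAMC1 from -0.26 to 0.15. COL4A1 ran from -0.51 (without Joey) to 1.31 (without ChadP9) and COL4A2 from -0.054 (without Joey) to 1.35 (without ChadP9). NID1 ran from -1.32 (without Dal4) to 1.78 (without ChadP9) and NID2 from -1.27 (without Joey) to 0.24 (without ChadP9). Lost probe sets were 0 without Dal4 and 4 without any other dog, and 4 to 5 under the other limits. The median correlation of the 10 genes ran from 0.152 by ranks to 0.279 without ChadP9 and Dal4. Array values near background limit LAMA5, LAMA4 in Dal4 and NID1 in ChadG6 and Dal4.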

Other observations

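SMOC2, a matricellular protein of basement membranes, was below the filter but had a signal of 9.91 in ChadG6, 5.05 log2 units above the next dog. EPCAM, an epithelial adhesion molecule, was above the threshold in Tucker at 8.03 and Joey at 8.87 and at 4.72 or less in the other dogs. KRT8, a keratin, was at 3.82 in ChadP9 and at 9.45 or more elsewhere, while LAMA4 was second lowest in ChadP9. With Dal4 left out, KRT8 was the gene most like LAMA4 over the other 9 dogs (r = 0.931), followed by FZD6 (r = 0.923) and PDPN (r = 0.915), all 3 at background in ChadP9. These genes were chosen after their values were seen.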
